A study of Mus musculus with 10 samples.

Results

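Accessible chromatin was described at exons that lie away from gene starts in adult mouse neural stem cell (NSC) cultures. A consensus region was an interval of merged ATAC-seq peaks with a peak in at least 2 of 10 libraries. It was counted as exonic when it lay on an autosome, when its summit fell in a coding exon or untranslated region (UTR) of a protein-coding gene, and when that summit was over 3 kb from the start of any gene in GENCODE (GRCm38). The rule used position only and no comparison between groups. It found 2938 exonic regions among 99231 consensus regions (2.96%), in 2541 genes. Of these, 1275 had their summit in a coding exon, 1168 in a 3' UTR and 495 in a 5' UTR, and 2210 genes held a single exonic region.

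In ATAC-seq, a transposase inserts sequencing adapters where DNA is not wrapped in nucleosomes, so a peak marks open chromatin. Most open sites in a cell are promoters, where transcription begins, and enhancers, which bind transcription factors and usually lie in introns or between genes. Exons are mostly occupied by nucleosomes, but an exon can overlap an enhancer, hold a binding site for the architectural protein CTCF, or contain the promoter of a shorter transcript of its gene. In neural stem cells, AP-1 factors (FOS and JUN family members) respond to mitogens, and nuclear factor I (NFI) proteins are known for their roles in quiescence and in glial differentiation.

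The cultures came from the subependymal zone (SEZ) of 10-week-old mice, wild-type (WT) or null for Cdkn1b, the gene of the cell cycle inhibitor p27 (p27KO). Proliferating cells (PRO) were neurospheres with EGF at 20 ng/ml and FGF at 10 ng/ml, at 3 days in vitro by the labels, although the study's results give a longer time. Cells at the onset of differentiation (DIFF) were seeded on Matrigel for 2 days and then left for 24 h without mitogens in 2% serum, so that PRO and DIFF differed in mitogens, serum and substrate together. WT gave 3 libraries in each condition and p27KO 2, each from 50000 cells. Whether replicates came from separate mice is not given, so p-values measure only the spread between these cultures.

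In 1 label field the p27KO libraries are described as WT, which goes against the other labels. All 6 WT libraries had 1 peak over Cdkn1b, with a fold enrichment of 8.84 to 12.3, and none of the 4 p27KO libraries had one. All 10 promoters examined for stem cell and progenitor genes, such as Sox2, Nes and Gfap, held a peak in all 10 libraries, while none of 4 endothelial promoters did. A peak in all 10 libraries was also found at 4 of 6 neuron, 2 of 5 oligodendrocyte, 2 of 5 microglia and 1 of 4 hepatocyte promoters, and the part of other cells in the results was not tested. The lists held 57534 to 91801 peaks. They do not hold the number of reads, so an absent peak means only that none was called with the reads at hand. WT DIFF replicate 3 stood apart from its group, with 88738 peaks against 57534 and 61783 in its other libraries.

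Sequences from 3 sets of exonic regions are shown first, because the results below turn on them. They are GRCm38 bases from RefSeq, 29 in each, and the capitals mark the match to a motif. Each was taken at the match nearest to the summit within 100 bases of it. The strand is the one on which the motif reads 5′ to 3′.

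The first set holds the AP-1 motif (TGANTCA) and comes from regions that were among the largest falls at DIFF in WT. Of the 13 regions chosen as the largest falls in coding exons and 3' UTRs, 5 held this motif, and of the 13 largest rises none did. Some of these regions had peaks at PRO alone or at DIFF alone, and their direction was fixed by a filter described below. The Fam83a sequence is at chr15:58010030-58010058 and that of Fry at chr5:150466376-150466404, both in coding exons. Those of Brap, at chr5:121685667-121685695, and Cst6, at chr19:5345487-5345515, are in 3' UTRs. All are on the plus strand.
Fam83a: ggtgcccagggTGACTCAcccctggaggc
Fry: gaggattccgaTGAGTCAtccgaggagga
Brap: cttcccaagggTGAGTCAcctcatggcca
Cst6: tcccaagggtcTGACTCAtcggagcccag

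The second set holds the NFI motif (TTGGCA) and comes from regions among the largest rises at DIFF. Of the 13 largest rises, 6 held it, as did 6 of the 13 largest falls, so it did not separate these few regions. The Hivep1 sequence is at chr13:42159577-42159605 on the minus strand and that of Tmem246 at chr4:49585935-49585963 on the plus strand, both in coding exons. The Cnot7 sequence, in a 3' UTR, is at chr8:40493322-40493350 on the minus strand, and that of Tbl2, also in a 3' UTR, is at chr5:135161411-135161439 on the plus strand.
Hivep1: tagctcttgagcTTGGCAgctccagcgct
Tmem246: aaaagcatttcTTGGCActcctacagtag
Cnot7: gttggtttctaaTTGGCAtgcataggctg
Tbl2: aacccaggcatTTGGCAggctctgggtgt

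The third set holds the core of the CTCF motif and comes from 3' UTR regions with a peak in all 10 libraries, of which these had the highest mean percentile of fold enrichment. The Slc4a3 sequence is at chr1:75559668-75559696 on the minus strand, that of Cryzl1 at chr16:91694874-91694902 on the plus strand and that of Rgs7bp at chr13:104948116-104948144 on the plus strand.
Slc4a3: caaaaaccaCCACCAGAGGGCtacacacg
Cryzl1: tcagccgtCCACTAGAGGGCagccatgca
Rgs7bp: ctcagtttCCACTAGGTGGCagcattgcc

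The exonic regions were of more than one kind. Coding exons held 48.4 regions per Mb of eligible sequence and 3' UTRs 42.8, which was close to introns (41.9) and above intergenic DNA (26.4), while 5' UTRs held 339. The median width was 414 bp for coding exon regions and 426 bp for 3' UTR regions, against 905 bp for 5' UTR regions. The median coding exon was 236 bp long, so the regions reached into introns on most of them, and a median of 62.3% of a region was exonic. The median exon under a 3' UTR summit was 2664 bp long, and the median region there was exonic over 100% of its length. Of the coding exon regions, 911 were in internal exons, 318 in last exons and 37 in first exons.

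Annotated starts of other transcripts separated these kinds. Although each summit was over 3 kb from every gene start, 1147 (39.0%) lay within 3 kb of the start of some annotated transcript. This held for 95.8% of the 5' UTR regions, 36.5% of the coding exon regions and 17.7% of the 3' UTR regions. A window of the same size around the summit was called island-like when its GC content was at least 50% and its ratio of observed to expected CpG at least 0.6. The share of island-like windows was 54.5% in 5' UTRs, close to the 47.5% near gene starts, 20.2% in coding exons and 3.60% in 3' UTRs, against 2.84% in introns. The 3' UTR windows stood out in another property: 10.7% held the CTCF core motif, against 5.25% in coding exons, 5.11% in introns and 5.15% of all consensus windows. The E-box CAGCTG was in 28.7% of coding exon windows and 20.9% of all consensus windows.

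Presence was uneven across the libraries. A peak was found in all 10 libraries in 1139 exonic regions (38.8%), against 38.2% of all consensus regions, and in only 2 libraries in 322. The share present in all 10 was 71.9% for 5' UTR regions, 30.8% for coding exon regions and 33.4% for 3' UTR regions. A peak in every library of the group was found at 1817 exonic regions in WT PRO, 1346 in WT DIFF, 2052 in p27KO PRO and 1590 in p27KO DIFF. Beside the 3 kb limit, the 195 exonic regions at 3 to 4 kb from a gene start had a median of 8 libraries with a peak, and 260 exonic regions at 2 to 3 kb, which the rule left out, had 9. The nearest region inside was in Cdk6, at 3002 bp, and the nearest outside in Coro1a, at 3000 bp.

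The regions present everywhere with the highest levels were examined next. Level here is the percentile of fold enrichment among the consensus regions with a peak in the same library. The coding exon regions with the highest mean percentile were in Focad (98.6% ± 0.784, SD, n = 10), Bag1 (98.1% ± 0.742), Slc4a5, Nckap5 and Slc1a6. Bag1 encodes a cochaperone of HSP70, Slc4a5 a bicarbonate transporter and Slc1a6 a glutamate transporter. In Focad the fold enrichment was 16.6, 18.1 and 16.9 in WT PRO, 16.1, 15.1 and 16.4 in WT DIFF, 20.5 and 20.0 in p27KO PRO, and 16.7 and 18.0 in p27KO DIFF. Among 3' UTR regions, that of Lars2, a mitochondrial leucyl-tRNA synthetase, had the highest level, with a fold enrichment of 30.4 to 39.5 over the 10 libraries. It was followed by Bcat2, an aminotransferase of branched-chain amino acids, and Rdh13, a retinol dehydrogenase. No list of problematic genome regions was applied. Of these 8 regions, that in Slc1a6 fell at DIFF in p27KO (change −0.86 ± 0.25, SE, limma adjusted p = 0.0492), and its change in WT had an adjusted p of 0.0501.

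The number of exonic regions with a peak moved with the length of the list. It was 2210 ± 61.2 (SD, n = 3) in WT PRO, 1588 to 2302 in WT DIFF (mean 1851, n = 3), 2331 ± 142 in p27KO PRO (n = 2) and 1911 ± 201 in p27KO DIFF (n = 2). The WT DIFF libraries held 1664, 1588 and 2302, so that replicate 3 exceeded every WT PRO library. Averaged over genotypes, the difference between DIFF and PRO libraries was −389 regions, which did not pass the exact permutation test within genotypes (two-sided p = 0.0667, adjusted p = 0.15). Without WT DIFF replicate 3 the difference was −502, and with the top 57000 peaks of each list it was −101. As a share of all regions with a peak, exonic regions made up 3.07% ± 0.0310 in WT PRO, 2.96% ± 0.0315 in WT DIFF, 3.02% ± 0.0466 in p27KO PRO and 2.97% ± 0.112 in p27KO DIFF. The 3 WT PRO shares all lay above the 3 WT DIFF shares, whereas the p27KO groups overlapped, and the averaged difference of −0.0855 percentage points had an exact permutation p of 0.0833 (adjusted p = 0.15). It was −0.0459 points without p27KO DIFF replicate 1. The 120 arrangements allowed no p below 0.0167.

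**Figure D1:**
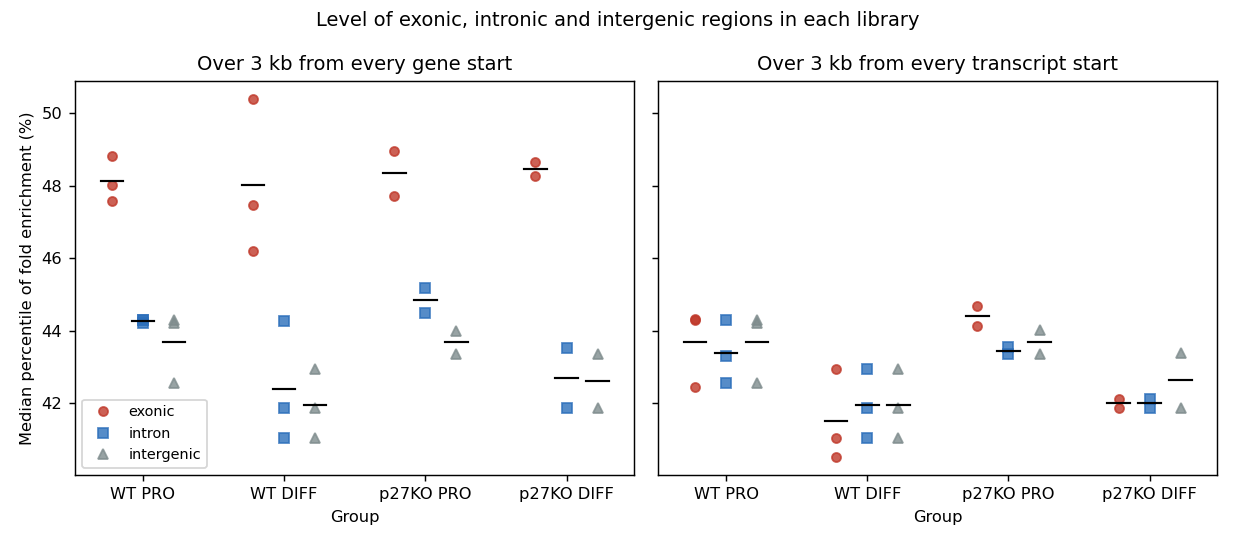
Median percentile of fold enrichment of exonic (circles), intronic (squares) and intergenic (triangles) regions in each library, by group on the x axis, with group means as black bars. With starts of genes only (left), exonic regions lie above the others in all 10 libraries, and with every transcript start (right) the mean exonic minus intronic difference falls from 4.71 to 0.143 points.

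Exonic regions ranked higher than regions in introns and between genes, and this depended on the annotated transcript starts. The median percentile of exonic regions was 46.2% to 50.4% over the 10 libraries, and it exceeded that of intronic regions in all 10, by 4.71 points on average (two-sided exact sign-flip permutation p = 0.00195, the smallest that 10 libraries allow, adjusted p = 0.00879). The excess over intergenic regions was 5.26 points (10 of 10 libraries, same exact p). When only regions over 3 kb from every annotated transcript start were kept, which left 1791 exonic regions, the difference from introns was 0.143 points, positive in 3 libraries, 0 in 5 and negative in 2, and that from intergenic regions was −0.121 points, positive in 3, 0 in 4 and negative in 3. The plot of levels by library shows both versions. Among the exonic regions themselves, the mean of the medians over libraries was 70.3% for 5' UTRs, 43.5% for 3' UTRs and 41.7% for coding exons, against 69.7% near gene starts. The coding exon median lay above that of the 3' UTR in 1 of 10 libraries, with a mean difference of −1.88 points that missed the threshold (exact sign-flip permutation p = 0.0508, adjusted p = 0.15). In the median percentile of exonic regions, the difference between DIFF and PRO was 0.00253 points (exact permutation p = 1, adjusted p = 1) and that between p27KO and WT 0.326 points (exact permutation p = 0.68, adjusted p = 0.765).

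To ask which exonic regions changed at the onset of differentiation, fold enrichments were ranked within each library. The ranks were turned into normal scores, so that a change of 1 is 1 unit of a standard normal scale. Regions without a peak were tied at the bottom and shared the mean of the tied ranks. The score of an absent peak therefore depended on the library and was higher in shorter lists. The limma fit covered all 70627 consensus regions found in 5 or more libraries (Benjamini-Hochberg adjusted p under 0.05). Of the exonic regions, 2140 were tested and 798 had too few peaks. At DIFF in WT, 215 exonic regions fell and 148 rose, which is 17.0% of those tested, against 19.2% of all tested regions. The falls made up 10.0% of the exonic regions (10.1% of all regions) and the rises 6.92% (9.15% of all regions). The median change over exonic regions was −0.03, and over all regions 0.03. Of the tested exonic regions, 75 had a peak in the 5 PRO libraries alone and 31 in the 5 DIFF libraries alone. These reached the limit of 5 libraries only through the condition where they were high, so their direction was fixed by the filter and their changes are given as descriptions, with no p. They gave 50 of the falls and 31 of the rises. Without them 165 of 2034 exonic regions fell (8.11%) and 117 rose (5.75%), against 8.12% and 8.22% of all regions left after the same step. Regions with peaks in every library of 1 condition and in few of the other also reached the limit mainly through that condition. They were not removed.

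**Figure D2:**
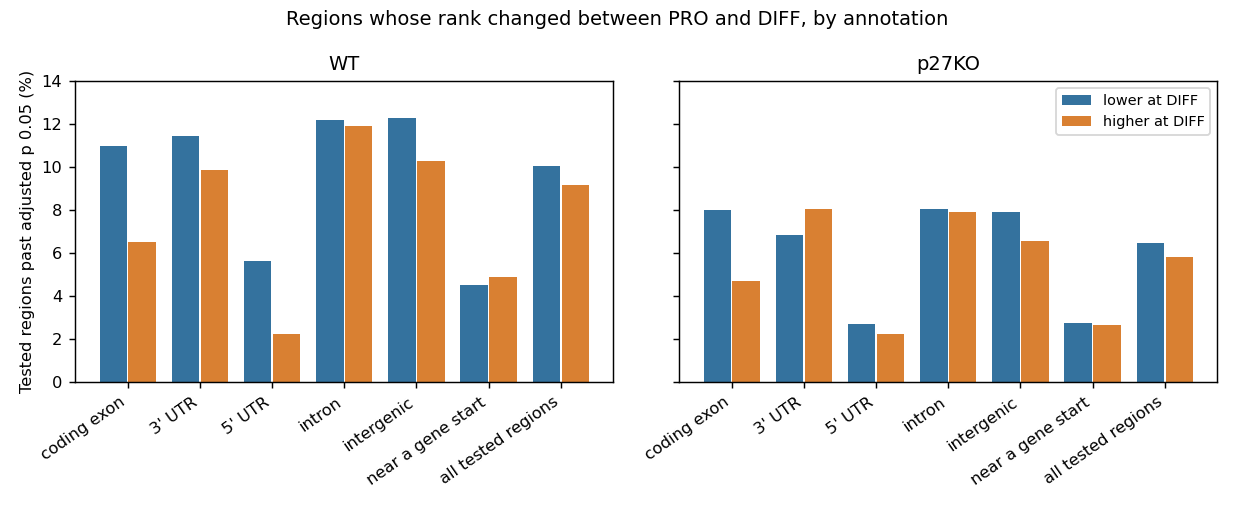
Percentage of tested regions (y axis) that were lower (blue) or higher (orange) at DIFF than at PRO in WT (left) and p27KO (right), by annotation of the summit on the x axis. In coding exons 11.0% fell and 6.53% rose in WT, while in introns the shares were 12.2% and 11.9%. Regions with peaks at PRO alone or DIFF alone are included.

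Coding exons and 3' UTRs differed in the balance of falls and rises. In WT, 96 of 873 tested coding exon regions fell and 57 rose, so that 62.7% of the changed regions were lower at DIFF, against 52.4% over all tested regions. In 3' UTRs 94 of 822 fell and 81 rose. In 5' UTRs only 25 of 445 fell and 10 rose, or 7.87% in all, near the 9.37% of regions close to gene starts. Within coding exons, 8 of 211 island-like regions changed (3.79%) and 145 of 662 others (21.9%), the latter near the share of intronic regions (24.1%). By distance from transcript starts, 47 of 315 coding exon regions within 3 kb of a transcript start changed (14.9%), and 106 of 558 farther away (19.0%). The tested coding exon regions include 32 with peaks at PRO alone and 12 with peaks at DIFF alone, and the 3' UTR regions 34 and 18. Their direction was fixed by the filter, and they were not removed from these counts. These shares describe the lists and were not tested against each other.

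The coding exon regions that fell most lay in genes of varied function. Itgbl1, an integrin beta-like protein, had the largest fall. At its exon 5 (chr14:123843539-123844303) the fold enrichment was 16.9, 14.7 and 17.5 in WT PRO, and 5.82 and 7.83 in WT DIFF replicates 1 and 3, with no peak in replicate 2. In p27KO it was 20.0 and 16 at PRO and 8.66 and 5.4 at DIFF. The groups did not overlap in either genotype, and the change was −2.24 ± 0.40 (SE, adjusted p = 0.00291) in WT and −1.84 ± 0.49 (adjusted p = 0.033) in p27KO. Syn2 encodes a synapsin, a phosphoprotein of synaptic vesicles. Its region (chr6:115238978-115239654) had fold enrichments of 11.2, 9.52 and 10.3 in WT PRO and of 12.3 and 9.87 in p27KO PRO, and no DIFF library had a peak (change in WT −2.14 ± 0.22, a description). This summit was 463 bp from the start of another annotated transcript. Adamts3, a metalloprotease that processes procollagen, and Pias1, a SUMO ligase, likewise had a peak in all 5 PRO libraries and in none of the 5 DIFF libraries.

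At Mast2, a microtubule-associated kinase, a peak was present in all 10 libraries and only its height changed. Its fold enrichment was 17.0, 13.5 and 15.7 in WT PRO and 3.79, 3.93 and 6.56 in WT DIFF, and 16.4 and 17.7 in p27KO PRO against 3.57 and 5.4 in p27KO DIFF. The change was −2.03 ± 0.26 in WT (adjusted p = 0.000381). Fam83a and Fry, whose AP-1 motifs are printed above, behaved alike. Fry, which encodes a large microtubule-binding protein, had fold enrichments of 10.5, 10.4 and 10.4 in WT PRO, a peak of 3.39 in WT DIFF replicate 3 alone, 11.7 and 10.3 in p27KO PRO, and 2.84 in p27KO DIFF replicate 2 alone. Its change was −1.91 ± 0.16 in WT and −1.95 ± 0.20 in p27KO. Both Fry and Fam83a had a peak in every PRO library but in only 1 DIFF library per genotype. They reached the limit of 5 libraries through PRO, so their changes are descriptions. Fam13b was the remaining region of the 8 largest falls (−1.81 ± 0.17 in WT).

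In 3' UTRs the largest falls were those of Brap and Cst6, also printed above. Brap encodes a ubiquitin ligase of the RAS pathway. Its region (chr5:121685271-121686325) had fold enrichments of 17.1, 16.9 and 15.4 in WT PRO and of 2.87, 4.28 and 3.30 in WT DIFF, while p27KO PRO had 16.7 and 16.6 and p27KO DIFF had 4.54 in replicate 2 alone. The change was −2.73 ± 0.28 in WT (adjusted p = 0.000137). At Cst6, a cystatin that inhibits cysteine proteases, the 5 PRO libraries had fold enrichments of 12 to 14.8 and the DIFF libraries had no peak (−2.69 ± 0.23 in WT, again a description). Tnpo3, Dpyd and Usp15 followed, with changes of −2.25, −2.22 and −2.12 in WT. Tnpo3 imports splicing factors into the nucleus, Dpyd degrades pyrimidines and Usp15 is a deubiquitinase. The summit in Tnpo3 lay in exon 2 of 24 of its transcript and that in Dpyd in the last exon of a transcript of 3 exons.

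**Figure D3:**
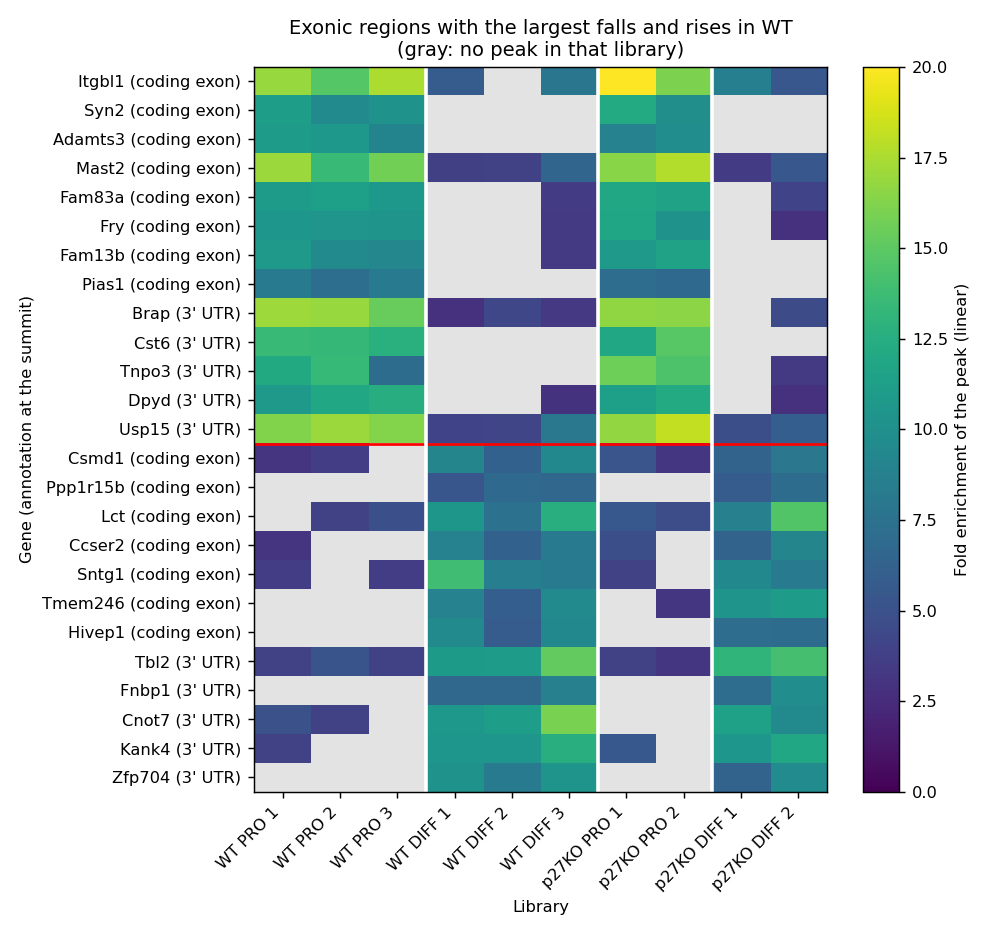
Fold enrichment (color, linear scale, gray for no peak) of 25 of the coding exon and 3' UTR regions with the largest falls (above the red line) and rises (below it) in WT, with libraries on the x axis and genes on the y axis. At Mast2 and Usp15 a low peak remained in every DIFF library, while Syn2, Adamts3, Pias1 and Cst6 had no peak in any DIFF library.

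Among the 8 largest rises in coding exons, those in Hivep1, Ppp1r15b and Tmem246 lay in exons of 5939, 3121 and 2736 bp, and those in Sntg1, Ccser2, Lct and Csmd1 in exons of 85 to 646 bp. At Hivep1, a large zinc finger transcription factor, the region (chr13:42159194-42159796) had no peak in any PRO library. The fold enrichment was 9.61, 5.78 and 9.31 in WT DIFF and 7.13 and 7.10 in p27KO DIFF, with a change of 2.35 ± 0.20 in WT and 2.14 ± 0.25 in p27KO. It reached the limit of 5 libraries through DIFF alone, so these changes are descriptions. Ppp1r15b, a phosphatase subunit that acts on the translation factor eIF2-alpha, also had peaks in all 5 DIFF libraries alone, with a change of 1.96 ± 0.18 in WT. Tmem246 had a peak in all DIFF libraries and in p27KO PRO replicate 2 (fold enrichment 3.18 there, and 6 to 11.1 at DIFF).

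Sntg1, Ccser2, Lct and Csmd1 also rose, with low peaks in some PRO libraries. Lct encodes lactase, an enzyme of the gut. Its region (chr1:128303829-128304414) had fold enrichments of 3.85 and 4.88 in WT PRO replicates 2 and 3 and of 10.6, 7.57 and 12.6 in WT DIFF (change 1.99 ± 0.32, adjusted p = 0.00151). In p27KO it was 5.54 and 4.70 at PRO and 8.73 and 14.6 at DIFF (1.39 ± 0.39, adjusted p = 0.0409). Csmd1, a transmembrane protein with complement-binding domains, rose by 1.96 ± 0.25 in WT and by 1.10 ± 0.31 in p27KO.

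In 3' UTRs, the rise was largest at Zfp704. This zinc finger gene had a region (chr3:9430604-9431327) with no peak at PRO and with fold enrichments of 10.3, 8.33 and 10.4 in WT DIFF and 6.37 and 9.62 in p27KO DIFF (change 2.61 ± 0.18 in WT, a description, since the region had peaks at DIFF alone). Fnbp1, an adaptor that bends membranes, showed the same pattern of presence (2.19 ± 0.16). At Cnot7, a deadenylase of the CCR4-NOT complex, the fold enrichment was 4.99 and 3.85 in WT PRO replicates 1 and 2 and 10.7, 11.2 and 16 in WT DIFF. It had no peak in p27KO PRO and 11.5 and 9.54 in p27KO DIFF (change 2.45 ± 0.29 in WT and 2.69 ± 0.36 in p27KO). At Tbl2 all 10 libraries had a peak, of 3.18 to 5.21 at PRO and of 10.9 to 15.2 at DIFF (2.08 ± 0.20 in WT). Kank4 rose by 2.60 ± 0.33.

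Exonic regions that fell and rose differed in the sequence at their summits. Motifs were counted on both strands within 100 bases of each summit, each motif on its own, so a window can hold several. The 215 falls include 50 regions with peaks at PRO alone, and the 148 rises include 31 with peaks at DIFF alone. The filter fixed the direction of these regions, so the shares by direction are descriptions. AP-1 (TGANTCA) was in 48 of 215 exonic regions that fell in WT (22.3%), in 6 of 148 that rose (4.05%) and in 5.97% of those not called. The NFI motif (TTGGCA) had the opposite order, with 37.8% of the regions that rose, 19.5% of those that fell and 17.6% of the rest. The E-box CAGCTG was in 36.7% of the falls, 25% of the rises and 25.2% of the regions not called. The TEAD motif (GGAATG) was in 6.98% of the falls and 19.6% of the rises. SOX (ACAATG) was in 16.7% of the falls, 15.5% of the rises and 9.62% of the regions not called. The CTCF core was in 5 of 215 falls and in 0 of 148 rises, against 8.89% of the regions not called.

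**Figure D4:**
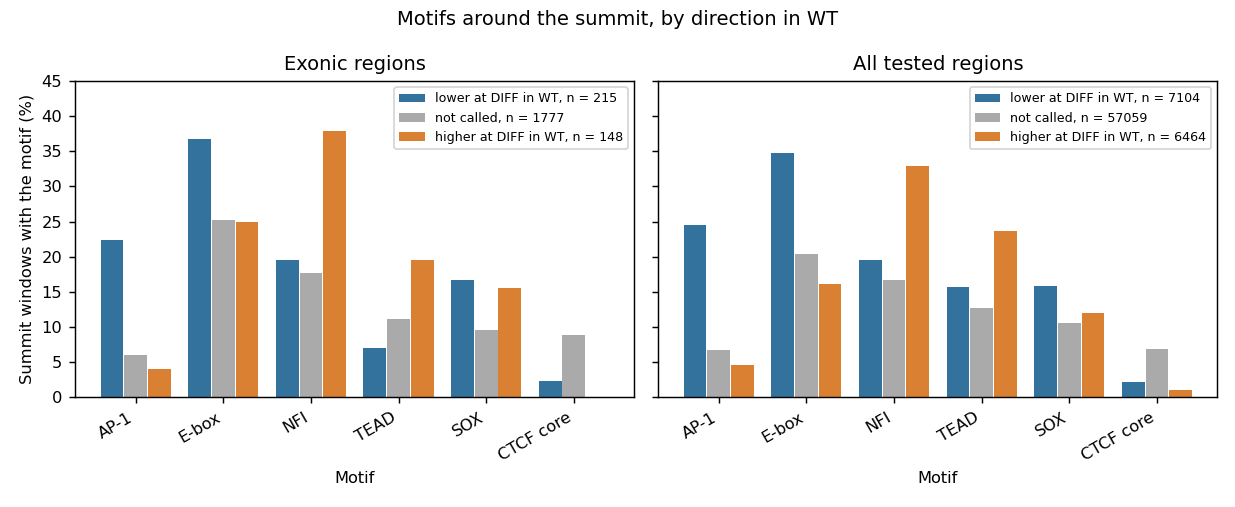
Share of windows reaching 100 bases either side of the summit (y axis, percent) that hold each motif (x axis), for regions lower at DIFF in WT (blue), not called (gray) and higher (orange), among exonic regions (left) and all tested regions (right). AP-1 was in 22.3% of exonic falls and 24.5% of all falls, and the NFI motif in 37.8% of exonic rises and 32.8% of all rises. Regions with peaks at PRO alone or DIFF alone are included.

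For AP-1 and the NFI motif the same order was found over all tested regions, so it was not particular to exons. There, AP-1 was in 24.5% of the falls and 4.52% of the rises, and the NFI motif in 19.6% and 32.8%. The E-box was in 34.7% of all falls, 16.1% of all rises and 20.4% of the regions not called. For SOX these shares were 15.9%, 11.96% and 10.6%, and for the CTCF core 2.2%, 1.02% and 6.92%. The higher E-box and SOX shares in falls and the lower CTCF share in changed regions were thus not particular to exons either. TEAD was in 15.7% of the falls, 12.7% of the regions not called and 23.6% of the rises over all regions, whereas among exonic regions the falls were below the 11.2% of those not called. Of all 99231 consensus windows, 8.81% held AP-1, 18.7% the NFI motif, 14.5% TEAD and 11.8% SOX. Coding exons alone gave 18.8% and 5.26% for AP-1 and 21.9% and 43.9% for the NFI motif, and 3' UTRs 23.4% and 3.70%, and 20.2% and 33.3%. These are matches of letters, and binding was not measured.

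The 3' UTR regions with a CTCF core, such as the 3 printed above, changed rarely. Of 125, 61 had a peak in all 10 libraries (48.8%), against 31.5% of the 1043 without the core. Of the 105 tested, 4 changed in WT (3.81%), against 23.8% of those without it. Coding exon regions with the core changed in 1 of 54 tested (1.85%), but their share in all 10 libraries was 31.3%, against 30.8% without it. In Slc4a3, which encodes an anion exchanger, the percentile of fold enrichment ranged from 79.0% to 93.4% over the 10 libraries, with a change in WT of −0.22 ± 0.20 (limma adjusted p = 0.479). In Cryzl1 the change was −0.58 ± 0.23 (adjusted p = 0.101), and in Rgs7bp −0.30 ± 0.30 (adjusted p = 0.541). Introns showed the same split, with 5.94% and 25.3% changed with and without the core.

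The changes were compared between genotypes, which share no libraries in this comparison but share 1 estimate of the spread. In p27KO, 138 exonic regions fell and 117 rose (11.9% of those tested, against 12.3% of all tested regions, with 6.48% lower and 5.83% higher). Coding exons had 70 falls and 41 rises, and 3' UTRs had 56 falls and 66 rises. Of the 363 exonic regions called in WT, 353 had the same sign in p27KO (97.2%) and 204 were also called there (56.2% of the WT calls and 80.0% of the p27KO calls). Over all tested regions the shares were 97.2%, 51.2% and 79.9%, so that the likeness of the genotypes was a property of the whole set. Exonic regions with peaks at PRO alone gave 50 of the WT calls and 31 of the p27KO calls. Those with peaks at DIFF alone gave 31 and 31. The filter fixed the sign of these regions in both genotypes, so they are no evidence of likeness, and they were not removed from the shares. The median size of the change over the WT calls was 1.10 in WT, where they were chosen, and 1.02 in p27KO. With 2 libraries per condition, the p27KO count rested on each of them: the count was 147 without PRO replicate 1, 114 without PRO replicate 2, 113 without DIFF replicate 1 and 137 without DIFF replicate 2.

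**Figure D5:**
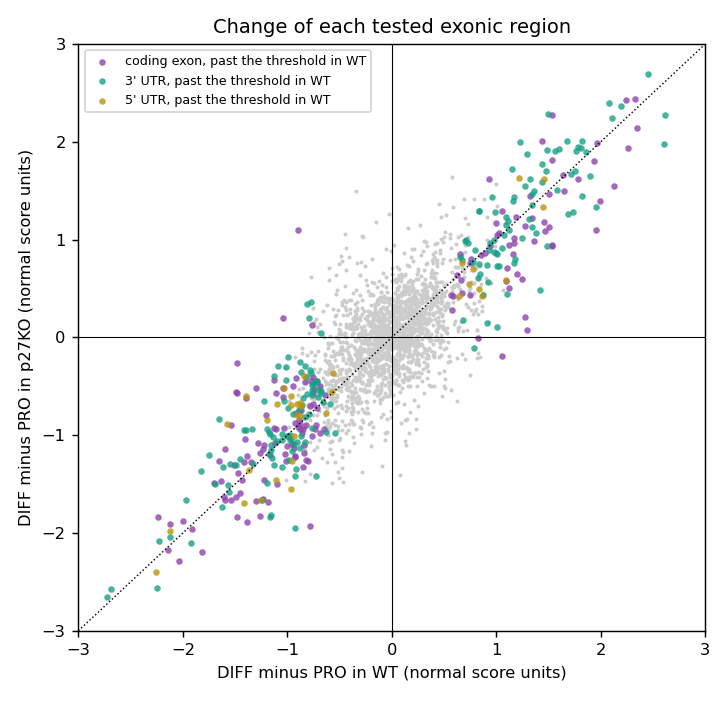
Change at DIFF against PRO in p27KO (y axis) against that in WT (x axis), in normal score units, for the 2140 tested exonic regions, colored by annotation where adjusted p was under 0.05 in WT and gray otherwise. The dotted line marks equal change, and 353 of the 363 colored points have the same sign in both genotypes. Of the colored points, 50 had peaks at PRO alone and 31 at DIFF alone, so the filter fixed their sign.

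With limma, no exonic region passed the test of a difference between the genotypes' changes, nor did any other tested region (0.0%). At an unadjusted p under 0.05 there were 79 of 2140 (3.69%), against 3.91% of all tested regions. The region with the smallest p was a coding exon of Dpysl5, which encodes a protein of the collapsin response family (chr5:30796186-30796372). It was also the only exonic region called in opposite directions. The fold enrichment was 4.43, 4.99 and 4.88 in WT PRO, with no peak in WT DIFF, while p27KO had 3.83 in PRO replicate 1 alone and 4.33 and 5.4 at DIFF. The change was −0.90 ± 0.25 in WT and 1.10 ± 0.30 in p27KO (limma adjusted p = 0.0262 and 0.0359), and the difference of 2.00 ± 0.39 had an unadjusted p of 0.000316 and an adjusted p of 1.00.

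Direct comparison of p27KO with WT in limma gave no exonic region at DIFF (0.0156% of all tested regions passed) or at PRO (0.034% passed). At an unadjusted p under 0.05 there were 103 and 120 (4.81% and 5.61%), against 4.91% and 5.53% of all tested regions. The lowest adjusted p at DIFF was that of a 5' UTR region of Pik3r1, the regulatory subunit of PI3-kinase, with a difference of 1.18 ± 0.19 (limma adjusted p = 0.151). At PRO it was that of 3' UTR regions in Ntng1, a netrin G protein (−0.83 ± 0.19), and Aak1, a kinase of endocytosis (0.85 ± 0.20), both with an adjusted p of 0.426. By presence alone, 1 exonic region, in a coding exon of Astn1, had a peak in all 4 p27KO libraries and in no WT library, and none had the opposite pattern, while over all consensus regions there were 57 and 29.

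Presence gave a second account of the change at DIFF. Within a genotype, a region was closed when its peak was called in all PRO libraries but in none at DIFF, and opened in the opposite case. In WT 140 exonic regions closed (4.77%, against 4.32% of all consensus regions) and 50 opened (1.70%, against 1.86%). In p27KO 303 closed (10.3%, against 10.9%) and 89 opened (3.03%, against 3.32%). The rule asks for 6 libraries in WT and 4 in p27KO, so the counts of the genotypes are not comparable. Closed regions outnumbered opened ones in both genotypes, and the DIFF lists were shorter than the PRO lists except that of WT DIFF replicate 3, without which 323 regions closed in WT. With the top 57000 peaks of each list, 106 closed and 75 opened in WT, and 159 and 112 in p27KO. Without WT DIFF replicate 1 or 2, 81 or 103 opened in WT. In p27KO, 485 closed without PRO replicate 2 and 554 without DIFF replicate 2, and 157 opened without PRO replicate 1 and 183 without DIFF replicate 1. Coding exons closed at 72 and opened at 21 in WT, and 3' UTRs closed at 55 and opened at 28. Of the exonic regions closed in WT, 75 also closed in p27KO (53.6% of the WT list and 24.8% of the p27KO list), and 31 opened in both (62.0% and 34.8%). Over all consensus regions these shares were 60.4% and 23.9% for closed and 51.5% and 28.9% for opened. No region closed in one genotype and opened in the other.

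The exonic regions were also read by the role of the gene that holds them, from lists of named genes. Beside these counts, 10.1% of all tested regions fell and 9.15% rose in WT. Of 115 transcription factors of neural progenitors, 14 had an exonic region and 17 regions were tested. In WT 2 fell and 1 rose. The coding exon region of Tcf4, a partner of proneural factors, had fold enrichments of 11.2, 12.5 and 10.7 in WT PRO and 5.57, 5.68 and 6.56 in WT DIFF (−0.78 ± 0.21, adjusted p = 0.0216), and of 14.2 and 15.3 in p27KO PRO and 4.59 and 3.69 in p27KO DIFF (−1.92 ± 0.25, adjusted p = 0.000978). The 3' UTR region of Meis1 fell in WT (−1.01 ± 0.23), with a peak in all 3 WT PRO libraries and no WT DIFF library. Its WT peaks counted toward the limit of 5 libraries through PRO alone, so this change is a description. The 3' UTR region of Six3 rose (0.78 ± 0.20), from 4.55, 4.58 and 4.67 in WT PRO to 6.31, 5.72 and 6.69 in WT DIFF.

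Among chromatin regulators 25 regions were tested, of which 3 fell and 4 rose in WT, and the same counts were found in p27KO. Smarca2, an ATPase of the SWI/SNF remodeling complex (−1.42 ± 0.21), Mbd5 (−1.34 ± 0.28) and Chd8 (−0.94 ± 0.21) had coding exon regions that fell. Coding exon regions of Srcap, which deposits the histone variant H2A.Z (1.93 ± 0.23), Chd7 (1.00 ± 0.28) and Ash1l (0.93 ± 0.28), and the 3' UTR region of Rcor2, a corepressor subunit (1.79 ± 0.22), rose. The Srcap region had no peak at PRO in either genotype, and fold enrichments of 6.58, 5.09 and 6.77 in WT DIFF and 3.82 and 8.52 in p27KO DIFF. Apart from Srcap, which had peaks at DIFF alone and is a description, each of these regions passed the test in p27KO with the same sign.

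For adhesion and matrix genes, 0 of 21 tested regions fell and 4 rose in WT, and 1 fell and 2 rose in p27KO. The WT rises were in Tnr, the matrix protein tenascin-R (1.46 ± 0.28), Nid2, a nidogen of basement membranes (1.24 ± 0.18), Hmcn1 (1.2 ± 0.28) and, in a 5' UTR, Sparc (0.67 ± 0.18). The change at Hmcn1 did not pass in p27KO (0.65, limma adjusted p = 0.266). At Nid2 the fold enrichment was 4.71, 4.53 and 5.37 in WT PRO and 8.75, 8.22 and 10.1 in WT DIFF, without overlap. In p27KO it was 7.67 and 6.12 at PRO and 8.99 and 9.56 at DIFF, a change that did not pass (0.60 ± 0.23, adjusted p = 0.117). Of 6 tested collagen regions, those of Col6a4 and Col6a3 fell (−1.49 ± 0.19 and −0.69 ± 0.18) and that of Col5a1 rose (1.43 ± 0.22).

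Signalling genes had 27 tested regions, with 1 fall and 2 rises in WT, and 1 fall and 0 rises in p27KO. The 3' UTR region of Fgf1, a fibroblast growth factor, fell (−0.96 ± 0.25). Coding exon regions of Met, the receptor of hepatocyte growth factor, and Ptch1, the Hedgehog receptor, rose in WT (1.16 ± 0.23 and 0.75 ± 0.24). None of these 3 passed in p27KO (adjusted p = 0.0524 for Fgf1, 0.0794 for Met and 0.397 for Ptch1). Met had fold enrichments of 6.93, 5.21 and 5.37 in WT PRO and 11.6, 7.17 and 11.7 in WT DIFF. Of 9 tested regions in cell cycle genes, 1 changed in WT, the 3' UTR region of Cdk6, a cyclin D-dependent kinase, which went from 6.86, 9.33 and 7.39 in WT PRO to 3.23, 2.64 and 2.93 in WT DIFF (−1.16 ± 0.28, adjusted p = 0.0137).

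Neuronal genes had 43 tested regions, of which 5 fell and 4 rose in WT. Beside Syn2, the regions of the calcium channel genes Cacna1b and Cacna1c fell in WT (−1.11 ± 0.21 and −0.79 ± 0.18) and that of Cacna1i rose (1.27 ± 0.29). None of these calcium channel regions passed in p27KO (limma adjusted p = 0.200 for Cacna1b, 0.0647 for Cacna1c and 0.771 for Cacna1i). Among the 6 tested glial regions 2 rose and none fell. The 3' UTR region of Mbp, myelin basic protein, had fold enrichments of 3.85 and 3.66 in WT PRO replicates 2 and 3 and of 4.55, 7.02 and 8.68 in WT DIFF (1.48 ± 0.33 in WT and 1.70 ± 0.41 in p27KO), and that of Atp1b2, a glial sodium pump subunit, rose by 0.65 ± 0.18. Zinc finger genes of the Zfp series had 32 tested regions, with 3 falls and 2 rises in WT and 1 fall and 4 rises in p27KO, the WT rises in Zfp704 and Zfp592 (1.82 ± 0.23). Of 4 protocadherin regions, 2 were tested and none changed, and Hox genes had no exonic region. These counts describe the lists, and genes of lists with up to 5 calls in a direction were named after their values were seen. The list counts include regions with peaks in 1 condition alone, such as those of Syn2, Srcap and Zfp704, whose direction was fixed by the filter.

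Some genes held several exonic regions. Ahnak2 had the most, 7, all in coding exons. They were low peaks with a fold enrichment of 2.51 to 5.83, and none of the 5 tested changed. Syne1, a giant nuclear envelope protein, had 6, of which 3 were tested and 1 fell (−1.13 ± 0.26 in WT, at exon 118 of 146). Sptbn4, Tcf4 and Zbtb20 had 5 each. In Zbtb20, a zinc finger repressor of neural and glial progenitors, a coding exon region rose (1.09 ± 0.23) and a 3' UTR region fell (−0.77 ± 0.22) in WT. Over all genes, 9 had at least 2 regions called in WT, and in 2 of these, D1Ertd622e and Tbc1d2b, both moved the same way. In the other 7, which were Alg8, Dicer1, Itgbl1, Lct, Trio, Vps13d and Zbtb20, one fell and one rose, and these genes were named after their values were seen. In D1Ertd622e, Dicer1, Itgbl1 and Vps13d, 1 region had a peak in only 5 libraries, so the filter may have fixed its direction. No share over other features was computed, so these counts are descriptions. In Dicer1, the nuclease that matures microRNAs, a coding exon region fell (−1.17 ± 0.28) while a 5' UTR region rose (1.22 ± 0.32).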

How the data were processed

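ATAC-seq peak lists of 10 libraries were used. The authors clipped adapters with cutadapt, trimmed with Trimmomatic, mapped reads to GRCm38 (mm10) with Bowtie2, and called narrow peaks per library with MACS2 (no model, false discovery rate 0.05); versions and read shift are not given in the sources used here. The deposited lists give for each peak a fold enrichment (a ratio to local background), a −log10 p-value and a −log10 q-value, and the summit offset. Peaks were merged with bedtools 2.31.1 and annotated with GENCODE M21 of GRCm38. The summit was that of the peak with the highest −log10 p-value. Coordinates count from 1. Motifs were searched in GRCm38 sequence.

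Normal scores of fold enrichment were tested with limma 3.58.1 (R 4.3.3) in 1 fit over the 4 groups. The test was checked on simulated data, where it missed most of the changes put in, so a count of 0 does not show an absence of change. Values per library were compared by exact permutation within genotype or condition, or by sign flips over libraries, adjusted over 9 tests. Groups were taken from the sample titles.

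Regions were named by rule: among regions called in WT, the 8 that fell and the 8 that rose most in coding exons and 5 and 5 in 3' UTRs; the 5 and 3 with a peak in all 10 libraries and the highest mean percentile; the genes with most regions, ties kept; and the 2 lowest and 2 highest per gene list. Genes known only by a number or clone name were skipped. Of the regions this named, 1 is not reported here. The regions and lists were chosen with earlier results of these data known. Alternatives were another rank, 2 or 10 libraries, the top 57000 peaks, another summit or start annotation, a replicate block, and leaving out each library.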

Additional observations from a re-analysis of the deposited data

How the results depend on the processing

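Counts of exonic regions changed at DIFF stayed within 1.5 times the reported 363 in WT and 255 in p27KO under all alternatives but those named here. Among regions with a peak in all 10 libraries they were 138 and 80 of 1139 tested, against 2140 tested for the reported counts. Leaving out 1 library gave 286 to 356 in WT and 113 to 261 in p27KO, with counts under 238 only where a p27KO library was left out. The replicate numbers were not taken as pairing the samples. After group means were subtracted, the deviations of same-numbered libraries correlated by −0.14 to 0.065. In p27KO, 2 libraries per group have mirrored deviations, so both pairs of PRO and DIFF gave the same −0.14, which cannot decide on pairing. Adding the replicate block gave counts of 360 and 246. With the p27KO numbers crossed, an alternative chosen after seeing the data, they were 361 and 254. The counts of differences between genotypes were 0 in each alternative run. By presence, leaving out 1 library gave 151 to 323 closed and 54 to 103 opened in WT and 381 to 554 closed and 102 to 183 opened in p27KO, and the top 57000 peaks gave 159 closed in p27KO. The top 57000 peaks turned the p27KO minus WT difference in number of exonic regions to −15.9 and that of coding exons minus 3' UTRs in median percentile to 1.89. Ranking by −log10 p-value gave −2.05 for the latter, now past the threshold (exact permutation, adjusted p = 0.041), and −0.588 points for DIFF minus PRO. Keeping only regions over 3 kb from every transcript start gave 0.00461 for p27KO minus WT in exonic share, −2.29 for DIFF minus PRO in median percentile, 0.143 for exonic minus intronic and −0.121 for exonic minus intergenic. Without 1 library, exonic share DIFF minus PRO was −0.125 to −0.0459, p27KO minus WT −0.0601 to 0.0192, median percentile DIFF minus PRO −0.592 to 0.459, p27KO minus WT −0.131 to 0.920, and coding exon minus 3' UTR −2.49 (without WT DIFF replicate 1, past the threshold) to −1.45. The causes were not tested. For the named regions, 255 of the alternative values kept direction and call, 7 lost the call and 0 reversed; with a library left out, 466 kept both, 34 lost the call and 0 reversed. Limits are that the lists used here give no read depth, that p27KO had 2 libraries per condition, and that ranks within a list cannot show a shift common to all regions.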
